A study of Mus musculus with 8 samples.

Results

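The genes described here serve antigen presentation on MHC class II molecules: H2-Aa, H2-Ab1 and H2-Eb1, which encode class II chains, H2-DMa, Cd74 and Ciita. Members were taken by gene symbol, with every probe set that maps to one of them. All 6 had a probe set on the array, among 12394 genes covered. Together they had 10 of the 22690 probe sets: 3 for H2-Ab1, 2 each for H2-Aa and Ciita, and 1 each for H2-Eb1, H2-DMa and Cd74. Of the 10, 9 passed the filter on low signal and 1, the second probe set of Ciita, did not.

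MHC class II molecules are pairs of an alpha and a beta chain that hold peptides from the endosomal pathway for inspection by CD4+ T cells. In mice of the b haplotype, C57Bl/6 included, H2-Aa and H2-Ab1 make the I-A molecule, while the I-E alpha chain gene H2-Ea is defective, so that the I-E beta chain from H2-Eb1 has no partner. Cd74, the invariant chain, fills the groove of new class II molecules and steers them to endosomes, and H2-DM, of which H2-DMa is the alpha chain, helps to exchange the remaining invariant chain fragment for peptides. Ciita is the coactivator that switches these genes on: it binds no DNA itself and docks on RFX, CREB and NF-Y at the promoter. B cells, dendritic cells and macrophages are the classical class II positive cells of the spleen, whereas mouse T cells are generally held not to transcribe these genes.

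The RNA came from splenic T cells of C57Bl/6 mice, wild type or with a knockout of Gfi1, a zinc finger repressor of haematopoietic cells, isolated magnetically with a pan-T kit. Each genotype was sampled before treatment (0 h) and after 4, 8 and 24 h in culture with anti-CD3 and anti-CD28 antibodies at 2 µg/ml, which together activate T cells. Each of these 8 groups had 1 Affymetrix MOE430A_2.0 array. Each genotype carries a single source number in the labels, with no age, sex or number of animals. The labels name no cell type or promoter for the deletion. Untreated cells were not cultured alongside, so the effect of the antibodies and that of time in culture cannot be told apart. Genotypes were therefore compared by size alone, with no p-value, and the only test is that of the change from 0 h, in which the 2 genotypes stand in for replicates. These p-values measure the spread between those 2 sets of arrays, not between animals of 1 genotype.

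The targeted gene did not check the labels. Gfi1 gave signals of 882, 6359, 5259 and 3966 over the 4 times in the arrays labelled wild type and 2316, 5979, 6459 and 9885 in those labelled knockout. No source used here says where its probe set lies relative to the deleted stretch, and the arrays are called wild-type-labelled and knockout-labelled throughout. T cell RNA was present on all 8 arrays, but at unequal levels: the CD3 delta chain gene Cd3d gave 14783 to 22780 in the wild-type-labelled arrays and 4774 to 12672 in the knockout-labelled ones. Mpo, a granulocyte enzyme, gave 119 to 3142 and 614 to 41520. The 2% trimmed mean was 1000.4 to 1000.5 on every array and 56.5% to 61.5% of probe sets lay above the floor of 141.88, below which signals were set to that value.

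Class II promoters are known for a shared arrangement in which an X box, bound by RFX, precedes a Y box, bound by NF-Y through the letters ATTGG, which read as CCAAT on the other strand. The following stretches are given to show how this is laid out upstream of 2 class II chain genes and of H2-DMa, the members whose windows were matched in RefSeq's table on build GRCm38.p6. No sequence is shown for H2-Ab1, Cd74 and Ciita. Each is the 150 bases before an annotated start, read in the gene's direction, at chr17:34287824-34287973 on the minus strand for H2-Aa, chr17:34305717-34305866 on the plus strand for H2-Eb1 and chr17:34122682-34122831 on the plus strand for the first start of H2-DMa. Capitals mark the Y box letters ATTGG and the letters GCAAC, a core of the X box, or, where they lie on the other strand, CCAAT for the first and GTTGC for the second.
H2-Aa: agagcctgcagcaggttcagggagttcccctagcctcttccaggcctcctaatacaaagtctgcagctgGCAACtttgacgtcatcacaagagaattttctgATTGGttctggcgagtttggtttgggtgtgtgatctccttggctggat
H2-Eb1: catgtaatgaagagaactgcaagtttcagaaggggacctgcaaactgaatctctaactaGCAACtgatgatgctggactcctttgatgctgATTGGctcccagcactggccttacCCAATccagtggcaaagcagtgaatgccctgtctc
H2-DMa: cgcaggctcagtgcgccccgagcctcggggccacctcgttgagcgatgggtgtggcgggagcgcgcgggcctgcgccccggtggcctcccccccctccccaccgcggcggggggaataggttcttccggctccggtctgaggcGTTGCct
In H2-Aa, GCAAC began at -81 and ATTGG at -48 relative to the start, 33 bases apart. In H2-Eb1 they began at -91 and -59, 32 bases apart, with a CCAAT at -35. The printed H2-DMa stretch held neither ATTGG nor CCAAT and had GTTGC at -7. A second annotated start of H2-DMa had ATTGG at -198. Both strands were searched, the motifs do not overlap, and GCAAC and the spacing of 25 to 40 bases were chosen after these sequences had been read. Of 32851 windows of 300 bases in the table, 37.4% held ATTGG on either strand, 35.2% held GCAAC on either strand, and 0.794% held the pair in this order and spacing. The matches are letters in a window and were not tested as binding sites.

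H2-Aa encodes the I-A alpha chain, the partner of H2-Ab1. Its brighter probe set (1435290_x_at) read, in time order, 8185, 5361, 4174 and 2014 on wild-type-labelled arrays, and 3165, 1527, 2242 and 2088 in the knockout-labelled ones. The wild-type-labelled signal was thus lower at each later time, while the knockout-labelled one was lowest at 4 h and close to its wild-type-labelled counterpart at 24 h. The ratio of wild-type-labelled to knockout-labelled signal was 2.59 at 0 h, 3.51 at 4 h, 1.86 at 8 h and 0.964 at 24 h. Its other probe set (1452431_s_at) went from 3189 through 1721 and 1205 to 638 in the wild-type-labelled arrays and read 1380, 537, 806 and 799 in the knockout-labelled ones. In both probe sets the wild-type-labelled array was the higher at 0, 4 and 8 h, and in the second the lower at 24 h. The suffixes _x_at and _s_at mark probes that can also bind related transcripts, and the part of related class II genes in their signal was not tested.

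H2-Ab1, the I-A beta chain, had 3 probe sets whose genotype differences were closest at 0 h and furthest apart at 8 h. The brightest (1450648_s_at) read 2893, 2167, 1289 and 979 in the wild-type-labelled arrays and 1380, 805, 1457 and 1053 in the knockout-labelled ones. At 8 h, and as the only class II chain probe set, it was the higher one on the knockout-labelled side, by 0.18 in log2 units. The second (1451721_a_at) read 2428, 1561, 934 and 611 against 1050, 546, 859 and 743. The third (1425477_x_at) read 1412, 634, 673 and 335 against 648, 345, 400 and 360. At 8 h the knockout-labelled minus wild-type-labelled difference of the 3 was 0.18, -0.12 and -0.75, so the probe sets of this gene disagree there on size and direction. At 0 h they were close, at -1.07, -1.21 and -1.12.

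H2-Eb1, the beta chain left without a partner, showed the largest genotype differences among the member probe sets at 0 h and 4 h. It read 5017, 3328, 2333 and 1325 in the wild-type-labelled arrays and 1804, 933, 1255 and 1239 in the knockout-labelled ones. The wild-type-labelled signal was 2.78, 3.57, 1.86 and 1.07 times the other at 0, 4, 8 and 24 h. As for H2-Aa, the 2 genotypes lay apart at 0 and 4 h and met at 24 h. H2-Ea, the defective alpha chain gene, read 25 to 88.1, under the floor on all 8 arrays.

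**Figure D1:**
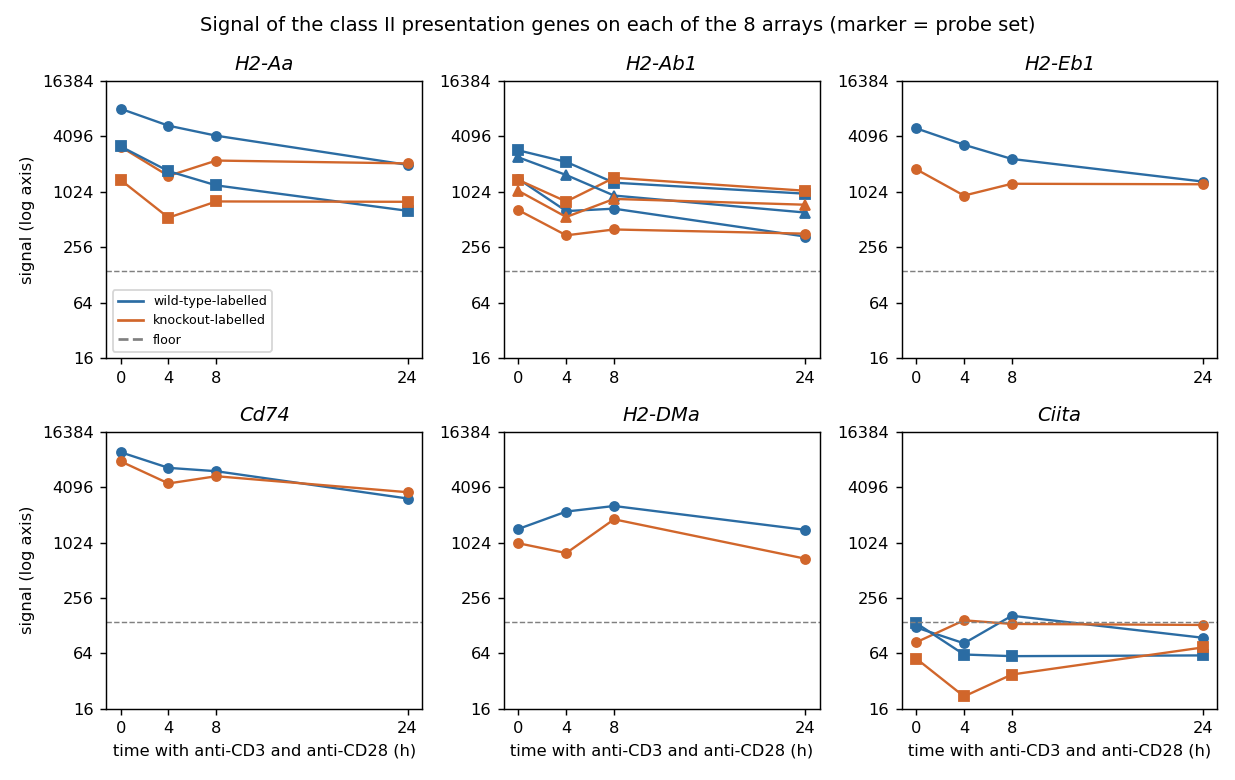
Deposited signal (log axis) of each probe set of the 6 genes against hours with anti-CD3 and anti-CD28. Each point is 1 array, colours give the label, marker shapes the probe sets of a gene, and the dashed line the floor of 141.88; there is no replicate and so no error bar. The chain genes start apart and meet at 24 h, Cd74 starts closer together, H2-DMa peaks at 8 h in both, and Ciita lies under the floor but for 2 points just above it.

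Taken by size, at 0 h all 6 chain probe sets had a knockout-labelled signal at least 2-fold under the wild-type-labelled one, with log2 differences of -1.48 to -1.07 (ratios 2.10 to 2.78). Of all 15062 probe sets tested, 7% were lower and 7.48% higher by that much at 0 h. At 4 h, 5 of the 6 chain probe sets and H2-DMa were at least 2-fold lower, the exception being 1425477_x_at of H2-Ab1 at -0.88, where 6.79% of all were lower and 10.3% higher. At 8 h no member probe set differed by 2-fold either way (background 6.77% lower and 10.4% higher), and the chains ranged from -0.90 to 0.18. At 24 h the chains ranged from -0.10 to 0.32, and H2-DMa alone was 2-fold lower (background 4.87% lower and 8.36% higher). No member was 2-fold lower at all 4 times, which held for 0.153% of probe sets. The median over the 9 tested member probe sets was -1.12, -1.5, -0.48 and 0.11 at 0, 4, 8 and 24 h, and that over all probe sets was 0, -0.02, -0.07 and 0.

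**Figure D2:**
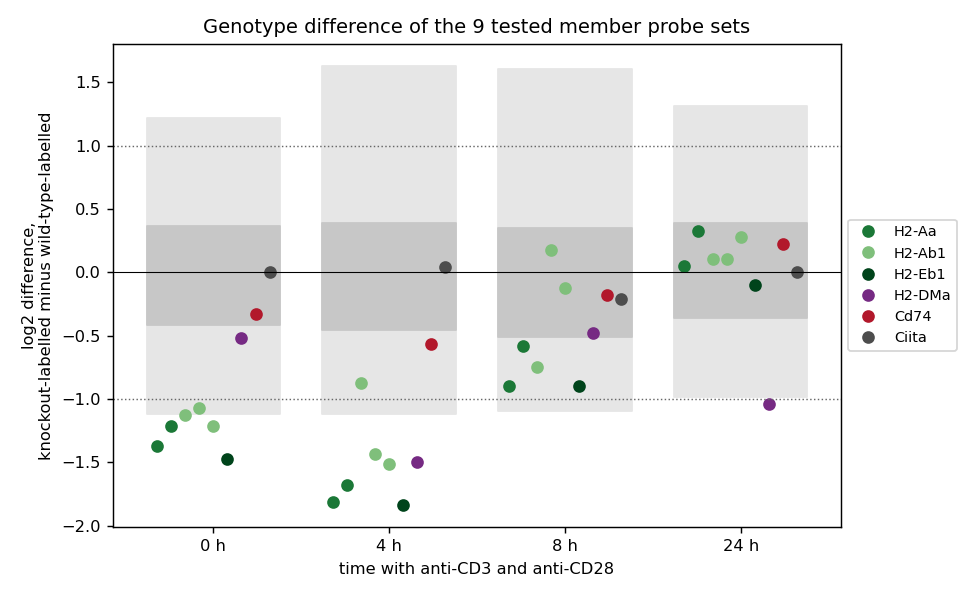
Log2 difference, knockout-labelled minus wild-type-labelled, of the 9 tested member probe sets at each time, 1 array per group. Light and dark grey boxes span the 5th to 95th and the 25th to 75th percentile of all 15062 tested probe sets, and dotted lines mark 2-fold. The chain probe sets lie under -1 at 0 h and, but for 1 of H2-Ab1, at 4 h, and near 0 at 24 h, where the sign of 4 probe sets changes with the scaling of the arrays.

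The direction at 0, 4 and 8 h was kept in every member probe set when the arrays were quantile normalized or divided by their medians. At 24 h it was not: 1435290_x_at (H2-Aa), 1425477_x_at and 1450648_s_at (H2-Ab1) and Cd74 had differences of 0.05 to 0.23 as deposited and of -0.23, -0.17, -0.17 and -0.05 after division by the median, which moved the median of all probe sets to -0.14, -0.15 and -0.19 at 4, 8 and 24 h. Quantile normalization turned 1425477_x_at alone, to -0.07. The chains thus had no difference in a settled direction at 24 h.

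Cd74, the invariant chain, read 9796, 6629, 6093 and 3079 in the wild-type-labelled arrays and 7799, 4488, 5376 and 3604 in the knockout-labelled ones. Its genotype differences of -0.33, -0.56, -0.18 and 0.23 were smaller than those of every chain probe set at 0 and 4 h. Its signal was highest at 0 h and lowest at 24 h in both genotypes, whereas the knockout-labelled chain signals were lowest at 4 h. Over the 8 arrays Pearson's r of Cd74 with the 6 chain probe sets was 0.78 to 0.90, and that between chain probe sets was 0.87 to 0.995 over 15 pairs. These are descriptions of arrays that share the time course and, for s and x probe sets, possibly target RNA.

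H2-DMa, which with H2-DMb forms the peptide exchange factor, had another course. Its signal was 1438, 2222, 2553 and 1405 in the wild-type-labelled arrays and 1005, 786, 1830 and 683 in the knockout-labelled ones. Both genotypes were highest at 8 h, and the knockout-labelled array was the lower at all 4 times, with differences of -0.52, -1.5, -0.48 and -1.04 (mean -0.88). At 24 h, where the chains met, the wild-type-labelled signal was 2.06 times the other. Pearson's r of H2-DMa with the chain probe sets was 0.38 to 0.55 over the 8 arrays.

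Ciita, the coactivator of the other members, was hardly detected. Its probe set 1421210_at lay under the floor on 6 of 8 arrays and above it at 146 (knockout-labelled, 4 h) and 164 (wild-type-labelled, 8 h). Its other probe set, 1421211_a_at, read 21.8 to 136, under the floor on all 8, and was not tested. A level so near the floor gives no order of arrays, and a difference in Ciita was not detectable on these arrays. At 0 h, wild-type-labelled signals of 1412 to 9796 for the chains and Cd74 stood beside a Ciita signal under the floor.

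The change from 0 h common to both genotypes was tested in limma, which adjusts p over all 15062 probe sets. A call needed a 2-fold change or more together with an adjusted p under 0.05. Only Cd74 at 24 h was called among the members. Its log2 signal fell by 1.39 (SE 0.25, limma adjusted p = 0.0359), with -1.67 in the wild-type-labelled and -1.11 in the knockout-labelled arrays. At 24 h, 2.2% of all probe sets were called lower and 1.24% higher. The call ended without any 1 of the 6 arrays of 0, 4 and 8 h (adjusted p 0.105 to 0.233) and in 5 other settings (0.0513 to 0.154), and it held without either 24 h array (0.0430 and 0.0476).

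The 6 chain probe sets had changes of -0.98 to -1.55 at 24 h, with standard errors of 0.39 to 0.48 and adjusted p of 0.0966 to 0.269. For H2-Aa (1435290_x_at) the change was -1.31 (SE 0.42, limma adjusted p = 0.144), being the mean of -2.02 in the wild-type-labelled and -0.60 in the knockout-labelled arrays. At 4 h and 8 h no member was called either way, where 0.465% and 0.989% of all probe sets were called lower and 0.631% and 0.956% higher. The lowest adjusted p of a member in limma was 0.301 at 4 h and 0.216 at 8 h. Without adjustment, 2 of 9 member probe sets had p under 0.05 for a lower signal at 4 h, 1 at 8 h and 6 at 24 h, against 8.33%, 12.7% and 13.9% of all probe sets. For a higher signal it was 1 at 8 h (7.08% of all). The latter was H2-DMa at 8 h, with 0.85 (SE 0.32, limma adjusted p = 0.216). The median change of the 9 probe sets was -0.77, -0.73 and -1.25 at 4, 8 and 24 h against -0.09, -0.10 and -0.07 over all probe sets. The 3 times share the 0 h arrays and are not independent.

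**Figure D3:**
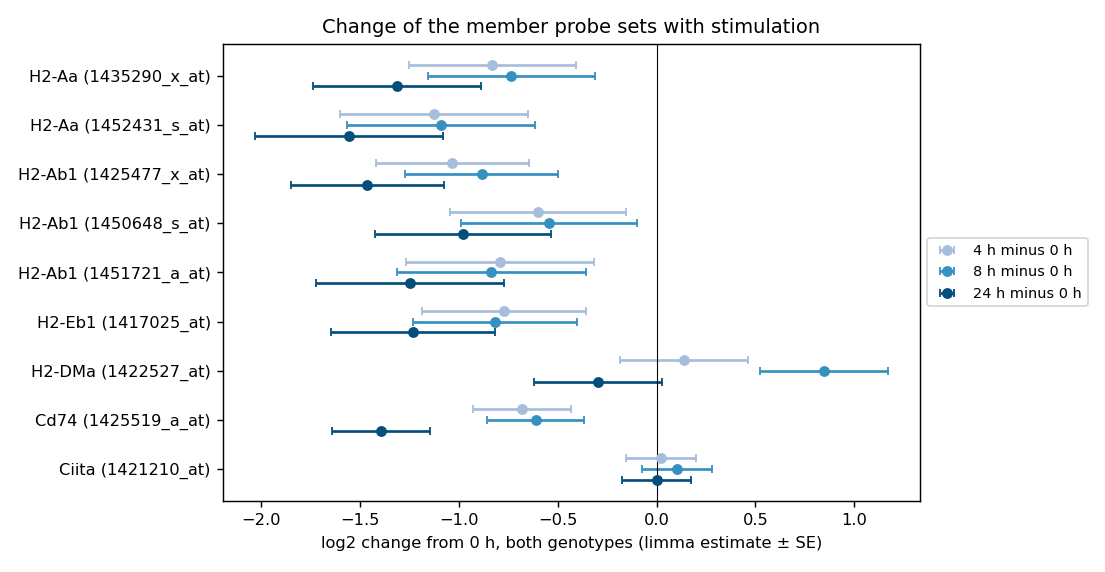
Log2 change from 0 h to 4, 8 and 24 h of the 9 tested member probe sets, as the limma estimate over both genotypes with its standard error (2 arrays per time). The chain probe sets and Cd74 lie left of 0 at each time, and only Cd74 at 24 h was called; H2-DMa lies right of 0 at 8 h, and Ciita, mostly at the floor, lies near 0.

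Taken apart by genotype, the chains and Cd74 went in different directions between 4 and 8 h. All 7 of their probe sets were lower at 4 h than at 0 h in both genotypes. So were 54.5% of all tested probe sets in the wild-type-labelled and 54.2% in the knockout-labelled arrays. The medians of the 7 were -0.61 in the wild-type-labelled and -0.94 in the knockout-labelled arrays. From 4 to 8 h all 7 were then higher in the knockout-labelled array, by 0.21 to 0.86, and 6 of 7 lower in the wild-type-labelled one, down to -0.75, the exception being 1425477_x_at at 0.09. That pairing of directions was seen in 15.4% of all tested probe sets. From 8 to 24 h the 7 were lower again in both, with medians of -0.92 and -0.15. Over that step 49.1% and 43.6% of all tested probe sets were lower in the wild-type-labelled and knockout-labelled arrays. From 0 to 24 h all 7 were at least 2-fold lower in the wild-type-labelled arrays (-1.56 to -2.32), as were 13.9% of all probe sets, and 1 of 7, Cd74, in the knockout-labelled ones (-0.39 to -1.11), as were 13.6%.

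The difference in response at 24 h, the knockout-labelled change minus the wild-type-labelled one, was 1.17 to 1.53 for the 6 chain probe sets, 0.56 for Cd74 and -0.52 for H2-DMa. None reached the 4-fold size set for it, which 3.32% of probe sets did in the positive direction. The median over the 9 member probe sets was 1.23 and that over all was 0.05. With 1 array per group this difference was not tested.

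Of 15 accessory genes of the class II pathway, 10 were tested. H2-DMb2, a beta chain of H2-DM, was lower on the knockout-labelled side at all 4 times, within the range of the chains at 4 and 8 h and below it at 24 h. It read 887, 525, 422 and 376 in the wild-type-labelled arrays and 308, 164, 296 and 267 in the knockout-labelled ones, with differences of -1.53, -1.68, -0.51 and -0.49. Its window on GRCm38.p6, at chr17:34145099-34145248 on the plus strand, has ATTGG at -90 and no GCAAC, and is shown to set it beside those of the chains.
H2-DMb2: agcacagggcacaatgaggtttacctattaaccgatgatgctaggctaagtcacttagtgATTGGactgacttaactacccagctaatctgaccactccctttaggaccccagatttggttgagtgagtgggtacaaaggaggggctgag
H2-Oa, the alpha chain of the H2-DM inhibitor H2-O, differed by -1.07 at 0 h and by -0.34, 0.15 and 0.51 later. It read 707, 559, 324 and 187 in the wild-type-labelled arrays and 337, 442, 360 and 265 in the others.

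The endosomal enzymes of the pathway lay the other way. Ctss, the protease that trims the invariant chain in B cells and dendritic cells, read 8112, 7048, 4740 and 2690 in the wild-type-labelled and 8156, 8956, 11446 and 10637 in the knockout-labelled arrays, so that its difference went from 0.01 at 0 h to 1.98 at 24 h. Ctsl, a related protease, was higher on the knockout-labelled side by 0.65, 1.5, 1.61 and 3.06. Ifi30, the reductase that opens disulphide bonds of antigens, was higher there by 1.01, 1.73, 2.72 and 0.27. Lgmn, an asparaginyl endopeptidase, was higher by 0.74 and 0.25 at 0 and 8 h and by at least 1.04 and 1.61 at 4 and 24 h, where its wild-type-labelled signal was under the floor. The 3 chain genes and these 4 enzymes thus differed in opposite directions at 4 h.

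Of the surface molecules that accompany class II on presenting cells, Cd83 and Cd40 rose with time. Cd83, which stabilises surface class II, rose by 3.36 (SE 0.48, limma adjusted p = 0.0314) at 4 h and by 2.94 (adjusted p = 0.0363) at 8 h, from 947 to 13094 in the wild-type-labelled and from 621 to 4766 in the knockout-labelled array at 4 h. Cd40, the receptor through which T cells license presenting cells, rose by 4.06 (SE 0.51, limma adjusted p = 0.0220) and 4.20 (adjusted p = 0.0172). Its signal went from 162 to 1522 in the wild-type-labelled arrays at 4 h and from 66.8, under the floor, to 4215 in the knockout-labelled ones. Both genes were higher in both genotypes. Cd86 (1.94, 2.14 and 1.03) and Cd80 (0.62, 0.51 and 0.79), the ligands of CD28, did not pass in limma at 4, 8 and 24 h. At 4 and 8 h, as in each list named below, no call was left when any 1 of the 6 arrays of 0, 4 and 8 h was omitted. At 24 h no gene of the accessory list was called.

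Among 19 tested regulators of class II transcription, none was called lower at any time, and 4, 3 and 3 rose at 4, 8 and 24 h. Over all probe sets 0.465%, 0.989% and 2.2% were called lower and 0.631%, 0.956% and 1.24% higher. Ifng, the cytokine that induces Ciita in many cell types, rose by 4.65, 5.10 and 5.70 (limma adjusted p = 0.0159, 0.0125 and 0.00895). Irf4, a factor of activated lymphocytes, rose by 4.64, 4.68 and 4.58, and Socs1, an inhibitor of cytokine signalling, by 3.53, 3.15 and 2.79. Irf1, a mediator of interferon gamma action, rose by 2.38 at 4 h and did not pass at 8 h (1.68, limma adjusted p = 0.0529). Irf8, a factor of myeloid and B cells, had 2.07, 1.91 and 1.24 and did not pass.

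The factors that sit on the X and Y boxes were detected on all 8 arrays and, apart from Rfxank at 0 h, differed by less than 2-fold between genotypes. Rfx5, a subunit of RFX, read 1083, 1430, 1164 and 647 in the wild-type-labelled and 581, 1283, 966 and 869 in the knockout-labelled arrays (-0.90, -0.16, -0.27 and 0.43). Rfxap had 0.00, -0.49, 0.21 and 0.69 and Rfxank -1.20, 0.53, -0.39 and 0.82. The NF-Y subunits Nfya, Nfyb and Nfyc ranged from -0.61 to 0.62 over the 4 times, and Creb1 from -0.70 to 0.81. Of the coactivators and deacetylase listed, Kat2b differed by 1.10 at 4 h, Crebbp by -1.99 at 8 h, and Hdac2 ranged from -0.74 to 0.61.

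Spi1, the myeloid and B cell factor PU.1, had the opposite direction to the chains: it read 357, 335, 273 and 159 in the wild-type-labelled arrays and 2540, 3384, 3261 and 485 in the knockout-labelled ones, higher at all 4 times by 2.83, 3.34, 3.58 and 1.61. Prdm1, a repressor of Ciita in plasma cells, was higher there by 0.93, 1.37, 0.54 and 2.31. Irf4 differed by 0.64, -2.09, -2.01 and -0.30, on the side of the chains at 4 h, and Irf8 by 2.03, -0.51, -0.49 and -0.40. The receptor chains Ifngr1 (0.70, -1.41, -1 and 0.63) and Ifngr2 (0.13, 0.33, 1.71 and 0.93) changed sign between times or between each other.

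Other targets of interferon gamma were measured beside the class II genes. Of 15 tested genes of the response, 11, 10 and 7 rose at 4, 8 and 24 h, where 0.631%, 0.956% and 1.24% of all probe sets did. None was called lower, and the median change was 3.18, 2.90 and 2.02. Gbp2, a guanylate binding protein, rose by 4.41, 4.45 and 3.53, Igtp by 3.14, 2.90 and 2.73, Iigp1 by 4.65, 4.55 and 3.72, and the chemokine Cxcl9 by 6.15, 6.03 and 3.73, each with a limma adjusted p of 0.0125 to 0.0485. The genotype difference had a median over the list of -0.89, -0.12, 0.38 and 0.54 at 0, 4, 8 and 24 h. At 24 h, omission of any 1 of the same 6 arrays left no call in the regulator, interferon, B cell or dendritic cell lists, and omission of the knockout-labelled 24 h array left 1, 0, 1 and 0. Irf1 and Socs1 stand in this list and in that of the regulators.

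Markers of class II positive cells were measured on the same arrays. In bulk RNA, fewer cells of a type and less RNA per cell cannot be told apart. Of 18 listed B cell genes 13 were tested, and 1, 2 and 6 of them were called lower at 4, 8 and 24 h. So were 0.465%, 0.989% and 2.2% of all probe sets. The median changes of the B cell genes were -0.59, -0.87 and -1.69. Their genotype difference had medians of -0.52, -0.47, -0.55 and 0. The 0 at 24 h reflects the floor, since a gene under it on both arrays has a difference of 0. On each 24 h array, 10 of the 16 listed genes with a probe set, tested or not, lay under the floor. The summed signal of the list was 2730 to 11467 in the wild-type-labelled and 2213 to 10452 in the knockout-labelled arrays, the highest at 0 h and the lowest at 24 h in both. Pax5 and Ebf1, which define the B lineage, were under the floor on all 8 arrays.

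The B cell genes did not share 1 genotype difference. Ms4a1, which encodes CD20, read 1800, 880, 1110 and 439 in the wild-type-labelled and 396, 192, 183 and 156 in the knockout-labelled arrays, with differences of -2.18, -2.19, -2.60 and -1.49. Ly86, also made by myeloid cells, was higher there by 1.44, 2.31, 2.02 and 0.01, Blk by 1.33, 1.27, 0.71 and at least 1.13, and Pou2af1 differed by 0.02, -0.47, -0.66 and -1.33. The part of B cell RNA in the class II signals was not tested.

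Of 14 dendritic cell genes 10 were tested, with genotype medians of 0.00, 0.07, -0.01 and -0.01. The summed signal of the 12 with a probe set was 5803 to 9830 in the wild-type-labelled and 11065 to 14357 in the knockout-labelled arrays. Cst3 was the brightest gene of the list on every array. Without it the list summed to 3040, 2546, 5751 and 6491 in the wild-type-labelled arrays in time order. In the knockout-labelled ones it then summed to 2213, 2506, 6604 and 7599, lower at 0 and 4 h and higher at 8 and 24 h. Cst3 was higher in the knockout-labelled arrays by 0.61, 1.39, 0.93 and 0.57. Bst2 differed by -0.74, 0.14, 1.26 and 1.03, Fscn1 by -0.74, -0.30, 0.20 and -0.19, and Ccl22, at the floor in both at 0 h, by -1.99 and -2.49 at 8 and 24 h. Fscn1 rose by 2.32 at 8 h and 2.86 at 24 h (limma adjusted p = 0.0251 and 0.0130), and Batf3 was called higher at 24 h (2.11). Itgax, under the floor on 3 arrays, was called lower at 4, 8 and 24 h (-1.38, -1.40 and -1.42), and Cst3 at 24 h (-1.43). The list thus had 1, 1 and 2 genes called lower and 0, 1 and 2 higher. Over all probe sets it was 0.465%, 0.989% and 2.2% lower and 0.631%, 0.956% and 1.24% higher. The median change of the list was -0.08, 0.41 and 0.03. Cd209a and Xcr1 did not pass the filter on low signal.

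The 15 tested monocyte and macrophage genes had genotype medians of 0.98, 2.45, 2.62 and 2.11. At the 4 times in order, 7, 11, 12 and 11 of them exceeded the wild-type-labelled signal by 2-fold or more. The shares over all probe sets were 7.48%, 10.3%, 10.4% and 8.36%. Lyz2, Csf1r, Fcer1g and Mpeg1, the most abundant, were higher by 0.92 to 4.75. The summed signal of all 15 genes was 1617 to 12058 in the wild-type-labelled and 18398 to 63705 in the knockout-labelled arrays. The median of this list and the class II chains thus differed in opposite directions at 0 and 4 h. Not every gene followed the median: at 0 h Adgre1 (-0.65) and C1qb (-0.39) lay on the side of the chains. At 4 h C1qa and C1qc were under the floor in both genotypes. The granulocyte list had medians of 3.40, 4.20, 3.61 and 1.35, and 8 of its 11 genes, Mpo, Ctsg, Prtn3 and Elane among them, were 2-fold or more higher on the knockout-labelled side at 0 and 4 h. The other 3, named after their values were seen, were Ngp (-0.54 and -0.81), Camp (-0.56 and -0.82) and Ltf (-0.60 and -0.21). The T cell list had -1.79, -1.73, -1.61 and -0.25, smallest in size at 24 h. At 0, 4 and 8 h its median lay on the same side as the median of the class II member probe sets. The erythroid list had 0.40, -0.33, -0.16 and -0.71 and the natural killer cell list -0.86, -0.96, -1.18 and 0.06. The part of cell mixture in the class II differences was not tested.

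**Figure D4:**
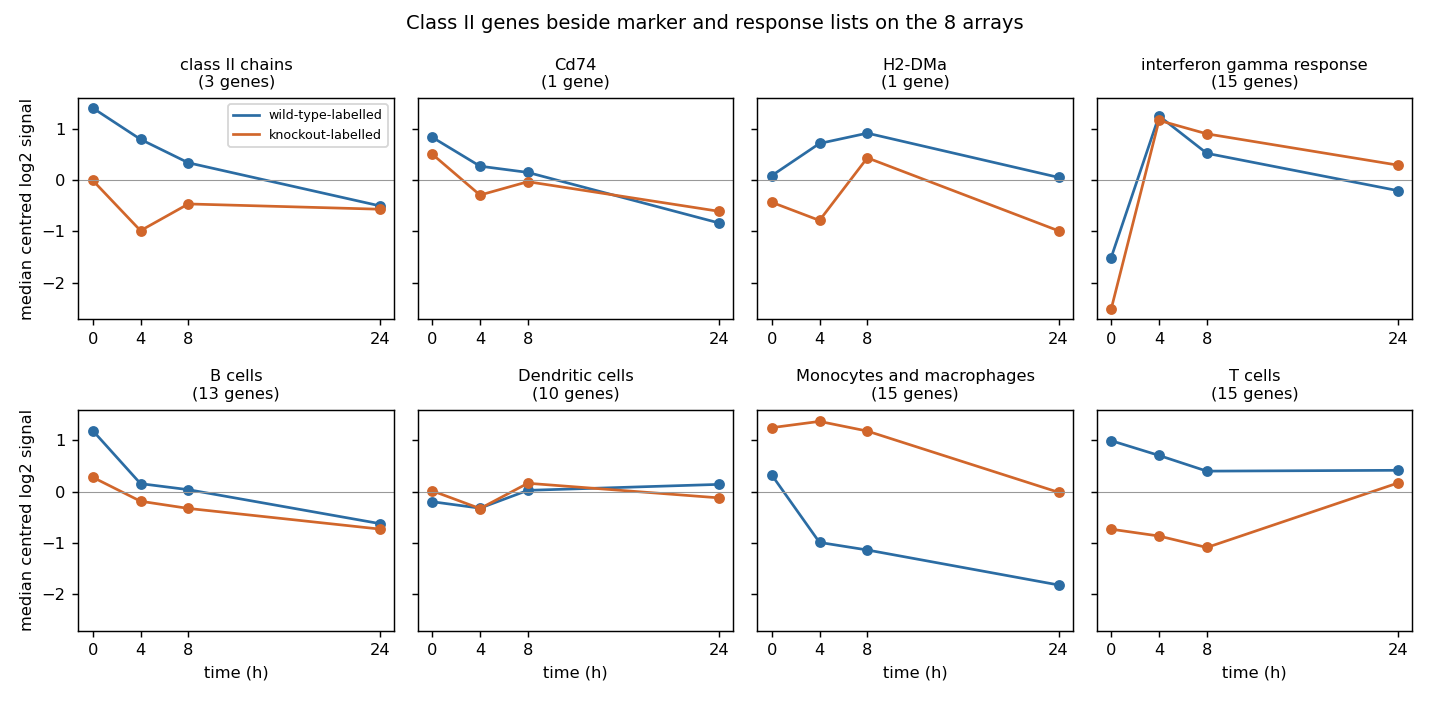
Median over each list of log2 signals centred on the gene's mean of the 8 arrays, against hours of stimulation, by label, 1 array per point. The medians of the class II chains and of the B cell genes have their maximum at 0 h in wild-type-labelled cells and meet at 24 h. For the B cell list that meeting reflects the floor, under which many of its genes lie at 24 h. That of the monocyte and macrophage list, though not each of its genes, is higher in the knockout-labelled array at each time. The interferon gamma response median is lowest at 0 h in both genotypes.

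The 10 genes most like the mean profile of the 6 members, by Pearson's r over the 8 arrays among 5380 tested genes with a range of at least 2-fold, had r of 0.92 to 0.97. They were Clk4, Rrnad1, Mdm4, Crebzf, Arid3b, Pi4ka, Trib2, Sfswap, Ighv14-2 and Spib. Clk4, a kinase of splicing factors, had 0.97 and read 2223, 1757, 1416 and 786 in the wild-type-labelled arrays and 1208, 771, 843 and 737 in the knockout-labelled ones. Spib, a B cell and dendritic cell factor that stands in the B cell list, had 0.92 and read 685, 351, 265 and 112 against 153, 127, 181 and 144. Ighv14-2, an immunoglobulin heavy chain segment, read 530, 297, 249 and 134 against 170, 98.4, 88.8 and 60. Ighv14-2 lay under the floor on 4 arrays and Spib on 2, and r was taken on floored signals. The arrays share 1 time course, and these values describe it.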

How the data were processed

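RNA of 8 mouse T cell samples, 1 per genotype and time, was hybridised to Affymetrix MOE430A_2.0 arrays. The deposited values are signal intensity, made with GCOS 1.4 and MAS5, per the submitters' processing notes; no source used here gives further steps. The table holds 22690 probe sets, 64 of them controls, and 0 per-sample columns were left unused. Probe sets were named from GEO's platform annotation: 20380 had 1 gene, 691 several and 1555 none, and those with several were not named.

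Signals were used as deposited. A floor of 141.88 was set at the arrays' median 40th percentile, lower values were raised to it, and log2 was taken. Differences against a floored value are lower bounds. The 15062 probe sets above it on at least 2 arrays were tested, and 8447 genes were represented by their brightest probe set. Change from 0 h was fitted in limma 3.58.1 (R 4.3.3; two-sided moderated test) with time and genotype as terms and a variance trend, leaving 3 residual degrees of freedom, and p-values were adjusted by Benjamini-Hochberg. Genotype was compared by size. All members are described whole, and every tested gene of 2 lists is named, though not each with all its values. The T cell, erythroid and natural killer cell lists are given by their medians, which single genes need not follow. The remaining lists are described by their 4 brightest genes, and some of their other genes were named after their values were seen. The steps were tested on simulated data. Members, lists and tests were chosen with earlier results of these data known. The number of arrays limits the precision. Alternatives are given in the closing section. Promoters and gene positions come from RefSeq. Figures were drawn with matplotlib 3.10.9.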

Additional observations from a re-analysis of the deposited data

Results flagged for a closer look

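Some probe sets moved in opposite directions in the 2 genotypes, by at least 2-fold relative to each other. From 4 to 8 h, 1450648_s_at of H2-Ab1 was higher at the later time in the knockout-labelled arrays and lower in the wild-type-labelled ones, a log2 difference of 1.61 between the 2 changes. The same held for 1451721_a_at of H2-Ab1 (1.39) and 1452431_s_at of H2-Aa (1.10). From 0 to 8 h, 1450648_s_at was higher by 0.08 in the knockout-labelled arrays and lower by a log2 change of -1.17 in the wild-type-labelled ones, a difference of 1.24. With 1 array per group these differences were not tested, and all share the 8 h arrays.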

How the results depend on the processing

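The single stimulation call at 24 h, Cd74, became 0 calls with each array divided by its median, a floor at the 60th percentile, no filter, no genotype term or no variance trend, and 0 to 1 with 1 array left out; its change was -1.10 with median division and -1.39 with the higher floor. The genotype counts follow the fold asked for: at 3-fold the lower member probe sets were 0 at 0 h, 3 of 9 at 4 h (1.44% of all probe sets) and 0 at 24 h, and at 1.5-fold 3 of 9 at 8 h (21.0% of all) and 7 at 4 h (18.5%). With log2 of signal plus the floor the counts at 0 h and 24 h were 4 and 0, where 674 and 453 of all 15062 probe sets were lower. The lower floor gave 7 at 0 h, with 2201 of 20730 probe sets lower. Median division gave 7 at 4 h, with 1456 of 15314 lower. In the main setting 1055 and 1023 of 15062 were lower at 0 and 4 h. Of 161 counts under an alternative, 141 were unchanged, 4 differed within 1.5 times and 16 by more. Of 182 values for single genes and lists, 2 lost their call, and 3 moved by more than their SD over the 4 times: the mean difference of Ciita with the 20th percentile floor (0.12), the B cell list with the 60th (-0.06) and the dendritic cell list after median division (-0.06). The sign turned in 14, none of them called: the mean differences of Ciita and of the regulator, interferon and dendritic cell lists, all near 0 as deposited, and the erythroid list, from -0.20 to 0.10 with the 60th percentile floor. The regulator list went from 0.02 to -0.11 after median division, and the H2-DMa change at 24 h from -0.29 to -7.62e-06. In the test of stimulation the genotype term already sets each time against 0 h of the same source number; without it 91 probe sets were called at 24 h in place of 519. No paired analysis was possible because, between genotypes, each group has 1 array and no source number is shared. Ciita signal near the floor limits what can be said of it.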
